A study of Homo sapiens with 7 samples.

Results

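MALAT1, NEAT1, GAS5, PVT1, H19, MEG3, TUG1, MIAT, KCNQ1OT1 and SNHG1 are long noncoding RNAs that have been studied in many tissues and cancers, and their levels were examined here in renal cell carcinoma (RCC) cells made to overexpress another long noncoding RNA, HOTAIR. The members were chosen by name: every probe whose gene name on the array is one of these 10 was taken, which gave 14 probes among 42405, and the 10 genes are among 34809 names on the array. Each probe is a 60-base DNA strand with the sequence of the RNA it detects, through a labelled complementary copy, and each is given separately because the level of one probe cannot be set against that of another. ACHN is an established human renal cell adenocarcinoma line. It was infected with a pBabe-hygro retrovirus carrying HOTAIR cDNA (ACHN-HOTAIR, 3 arrays) or with the empty vector (ACHN-EV, 4 arrays), and both populations were selected with hygromycin, so the controls carry the vector as well. Total RNA of each sample was hybridised in a single colour to an Agilent SurePrint G3 array. Nothing in the labels says whether samples of a group came from separate cultures, so the p-values below measure only the spread between these samples, which may be technical.

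Long noncoding RNAs are transcripts without a long open reading frame, and the 10 examined here act in different places. MALAT1 and NEAT1 are neighbouring nuclear RNAs, found in nuclear speckles and paraspeckles, respectively. GAS5 and SNHG1 are spliced hosts that carry small nucleolar RNAs (snoRNAs) in their introns, while H19, MEG3 and KCNQ1OT1 are transcribed from one parental allele within imprinted gene clusters. PVT1 lies beside the MYC gene, and TUG1 and MIAT are spliced or retained RNAs without a shared locus. In the RefSeq table of assembly GRCh38.p14, 9 of the 10 have the type lncRNA, while TUG1 is listed as protein_coding.

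All values are the log2 of the probe's processed fluorescence minus the 75th percentile of that array, so 0 is the brightness below which 75% of the spots of an array lie. The HOTAIR probe served as the check of the labels. It averaged -2.98 ± 0.35 (SD, n = 3) in ACHN-HOTAIR cells and -6.69 ± 0.39 (SD, n = 4) in ACHN-EV cells, where no array measured it well above background. The increase was at least 4.80-fold (limma, adjusted p = 0.00162), a bound that holds for the processed intensities. With normexp background correction the log2 difference was 1.06 (adjusted p = 0.0251), below that bound. EV 2 stood apart from the other arrays on the first principal component (74.0, against -29.4 to 21.1), and HOTAIR 3 had the second highest score. All EV arrays lay in one row of the slide and all HOTAIR arrays in the other, so row and group cannot be told apart. All 10 renal epithelial carcinoma markers examined, among them PAX8, PAX2 and KRT18, were bright enough to be tested. Of the 10, 0 were called (0.167% of all tested probes were). An unadjusted p of 0.05 was reached by 2 of the 10 markers (5.85% of all tested probes reached it). These were CA12, a carbonic anhydrase (difference 1.09 ± 0.32 SE, adjusted p = 0.532), and KRT19, an epithelial keratin (-0.41 ± 0.13, adjusted p = 0.602). CDH2 (0.16 ± 0.12) and KRT8 (-0.18 ± 0.35) were next in size. Of 8 markers of blood, endothelial, stromal and melanocytic cells, 5 were above background on no array (CD3E, VWF, DCN, LUM and MLANA). PTPRC was above background on at most 3 arrays and PECAM1 on at most 1, and neither was tested. CD79A was the only one bright enough to be tested. It averaged 0.16 ± 0.091 (SD, n = 3) in ACHN-HOTAIR and -0.18 ± 0.39 (SD, n = 4) in ACHN-EV cells (difference 0.34 ± 0.21 SE, adjusted p = 0.949).

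None of the 8 long noncoding RNAs that were bright enough to test was called different between ACHN-HOTAIR and ACHN-EV cells, and H19 and MIAT were at background on all 7 arrays. A probe was tested if all arrays of at least one group measured it well above background, and 12 of the 14 probes, for 8 of the 10 genes, met this. At an adjusted p of 0.05, limma called 0 of these 12 probes, against 34 of all 20419 tested probes (0.167%), a background at which 0 of 12 says little by itself. No member probe reached an unadjusted p of 0.05 either (5.85% of all tested probes did), and none had groups that did not overlap (7.70% of all). The rank product called 0 of the 12 and 85 of all 20419 tested probes, so its 0 of 12 also says little by itself. The Mann-Whitney test could call nothing with 4 against 3 arrays, since its smallest possible p is 0.0571. The lowest adjusted p of a member was 0.943. The differences ran from -0.30 to 0.25, with a median of -0.085, against a median of 0.013 over all tested probes, and 7 were negative and 5 positive.

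The width of the intervals shows what changes these arrays could have missed. For 11 of the 12 probes the 95% interval of the difference lay within 2-fold in either direction, and for 7 it lay within 1.5-fold. MALAT1 was the exception, since its interval ran from 0.347-fold to 3.49-fold. These intervals hold for each probe by itself and are not widened for the number of probes.

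**Figure D1:**
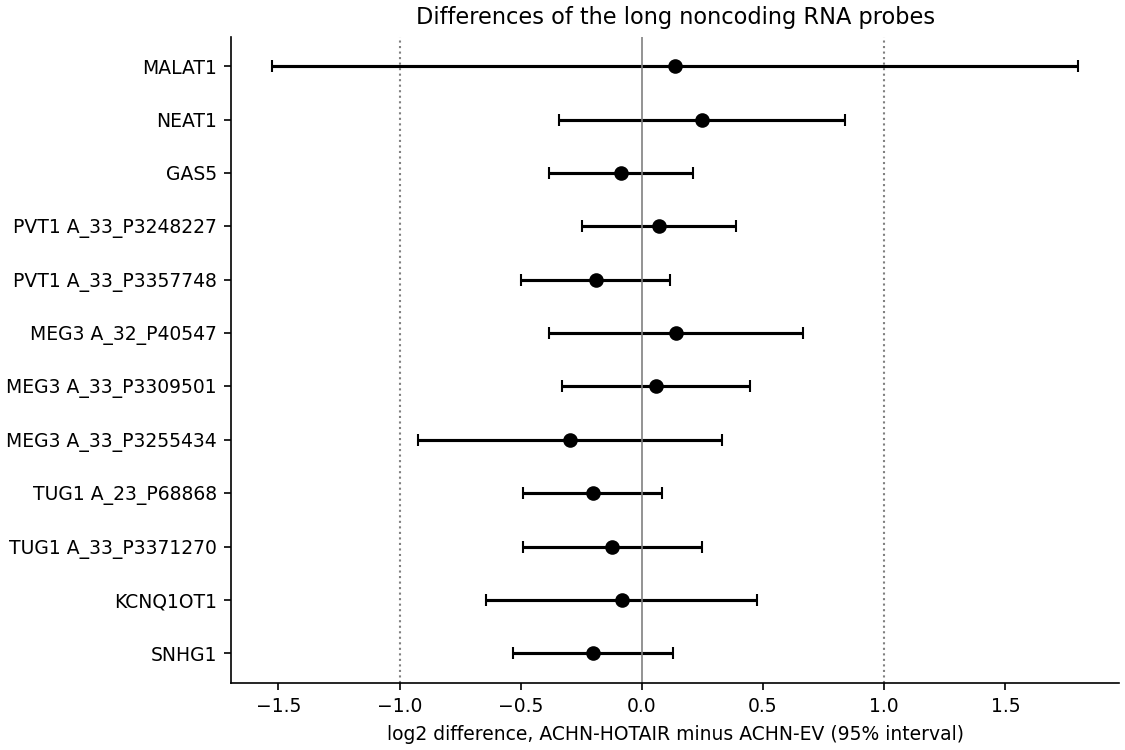
Difference in log2 signal between ACHN-HOTAIR (3 arrays) and ACHN-EV (4 arrays) cells for the 12 tested probes, with points for the difference and bars for limma's 95% interval. Dotted lines mark a 2-fold change, and every interval includes 0, with only that of MALAT1 reaching past the dotted lines.

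The nuclear-body RNAs come first. MALAT1, an RNA of nuclear speckles, is represented by 1 probe on the plus strand (hg19, chr11:65272873-65272932). It is shown with the letters AATAAA, the usual polyadenylation signal, in capitals where they occur:
MALAT1 A_24_P873659: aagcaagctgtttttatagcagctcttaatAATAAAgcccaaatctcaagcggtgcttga
AATAAA occurred in 3 of the 14 member probes, those of MALAT1 and GAS5 and one of MEG3, and in 6.98% of all 60-base probes on the array, while its reverse complement TTTATT occurred in 0 member probes and in 3.72% of all. A match of 6 letters is a description of the probe and not evidence of a used site or of a poly(A) tail. The labelling primed on poly(A), and whether the RNA read by each probe here carries a tail was not tested.

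MALAT1 read -2.23, -4.95, -2.16 and -2.92 in EV 1 to EV 4 and -2.56, -2.33 and -3.88 in HOTAIR 1 to HOTAIR 3. EV 2 and HOTAIR 3 were the low arrays of their groups, and on EV 2 the probe was not well above background, so it was tested through the HOTAIR arrays alone. The groups overlapped, with a difference of 0.14 ± 0.71 (SE; adjusted p = 0.994). The pooled SD within groups was 1.14, larger than for 99.1% of all tested probes. The sign rested on single arrays: the difference was -0.49 without EV 2, -0.16 without HOTAIR 2, -0.044 without HOTAIR 1 and 0.62 without HOTAIR 3, and without both EV 2 and HOTAIR 3 it was -0.013. EV 2 and HOTAIR 3 also have the highest scores on the first principal component, and the part of that axis in the MALAT1 values was not tested.

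The array carries further probes of the MALAT1 locus, named only as intergenic noncoding RNA (lincRNA) intervals. The nearest on the same strand, A_19_P00324839, starts 638 bases downstream of the start of the named probe. It read 0.34, -1.26, 0.25 and -0.48 in EV 1 to EV 4 and -0.051, 0.31 and -0.89 in HOTAIR 1 to HOTAIR 3. EV 2 was again lowest and HOTAIR 3 again second lowest, so the named probe and its neighbour were low on the same arrays. The other 3 same-strand probes, which lie further downstream, were lowest on HOTAIR 1 (2 probes) or EV 4 (1 probe), and none of the 4 was called (differences from -0.078 to 0.18).

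On the strand opposite MALAT1, where RefSeq lists the antisense transcript TALAM1 as the next gene, the arrays were ordered differently. Of 6 opposite-strand probes, 4 were well above background on all 7 arrays, and all 4 were lowest on EV 1. The median deviation of these 4 from their own mean over the arrays was -1.35 on EV 1, 0.56 on EV 2 and 0.67 on HOTAIR 3. The brightest of them, A_19_P00322422, read 0.48, 2.41, 1.77 and 2.58 in EV 1 to EV 4 and 1.69, 2.09 and 2.98 in HOTAIR 1 to HOTAIR 3. EV 2 and HOTAIR 3, the low arrays of the MALAT1 probe, were thus among the high arrays here, and the groups overlapped (difference 0.44 ± 0.53 SE, adjusted p = 0.993). Another opposite-strand probe was tested, but it was well above background on all arrays of only 1 group. Its sign may thus be in part fixed by that filter. The differences of all 5 were positive, from 0.098 to 0.44, with 0 called (0.167% of all tested probes were).

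**Figure D2:**
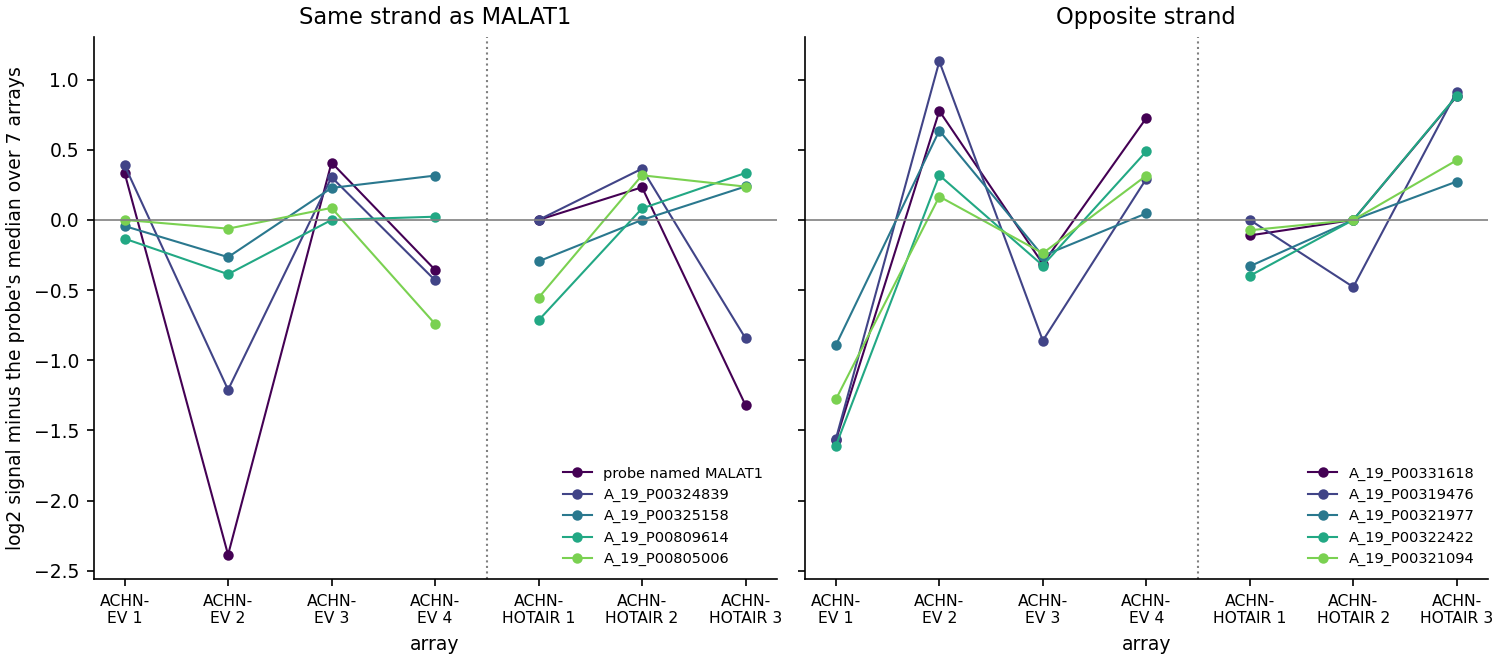
log2 signal of the tested probes at the MALAT1 locus on each array, as the deviation from the probe's median over the 7 arrays, with one line per probe for the same strand as MALAT1 (left) and the opposite strand (right), broken between the groups. The named MALAT1 probe and A_19_P00324839 dip on EV 2 and HOTAIR 3, while every opposite-strand probe is lowest on EV 1.

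NEAT1, the RNA scaffold of paraspeckles, has 1 probe. The probe read -2.21, -1.69, -2.16 and -2.35 in EV 1 to EV 4 and -2.16, -2.11 and -1.28 in HOTAIR 1 to HOTAIR 3. HOTAIR 3 was the highest array and EV 2 the second highest, while the other 5 arrays lay close together. The difference was 0.25 ± 0.25 (SE; 95% interval -0.34 to 0.84, adjusted p = 0.993). It rested on HOTAIR 3, without which it was -0.034. Of 3 same-strand lincRNA probes within 10 kb, 2 were above background on no array.

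Proteins of the bodies that hold these RNAs gave no call either. All 12 paraspeckle proteins examined were tested and 0 were called by limma, with 0 at an unadjusted p of 0.05 and a median difference of -0.017. Of all tested probes 0.167% were called and 5.85% reached that p, so 0 of 12 says little by itself. Among the 12 proteins, NONO, a core paraspeckle protein, had a difference of -0.27 ± 0.26 (SE) and SFPQ, its partner, one of 0.12 ± 0.11. TAF15 and EWSR1, RNA-binding proteins of one family, had differences of 0.37 ± 0.32 and -0.13 ± 0.24. Of 10 nuclear speckle and serine/arginine-rich splicing proteins (median 0.028), 0 were called and 0 reached an unadjusted p of 0.05 (0.167% and 5.85% of all tested probes). The extremes were SRSF1 at -0.32 ± 0.15 and SRRM2 at 0.20 ± 0.12 (SE; adjusted p = 0.889 and 0.939), followed by SRSF4 at -0.13 ± 0.16 and SRSF7 at 0.17 ± 0.19.

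The snoRNA hosts come next, with intervals for GAS5 and SNHG1 about as wide as those of the PVT1 probes. GAS5, whose exons are rapidly degraded during translation while its introns yield snoRNAs, was measured by a minus-strand probe (hg19, chr1:173833049-173833108). It shares bases with an opposite-strand lincRNA probe, and in the pair below the capitals mark the 43 bases of one that are the reverse complement of the other:
GAS5 A_33_P3326285: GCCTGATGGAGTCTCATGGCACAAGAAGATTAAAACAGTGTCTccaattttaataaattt
Opposite strand A_19_P00803543: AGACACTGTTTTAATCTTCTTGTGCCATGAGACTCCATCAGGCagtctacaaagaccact
GAS5 read 5.82, 5.76, 6.06 and 6.01 in EV 1 to EV 4 and 5.73, 6.00 and 5.75 in HOTAIR 1 to HOTAIR 3. All arrays lay close together and the groups overlapped. The difference was -0.086 ± 0.13 (SE), with an interval from 0.766-fold to 1.16-fold (adjusted p = 0.993). Of 2 same-strand lincRNA probes within 10 kb, 1 was tested. Its difference had the other sign, 0.28 (adjusted p = 0.949, not called), and lay above the upper end of that interval (0.21 in log2).

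The opposite-strand probe read -3.05, -0.98, -2.43 and -2.15 in EV 1 to EV 4 and -1.97, -2.07 and -2.47 in HOTAIR 1 to HOTAIR 3. Over the 7 arrays it ranged over 2.07 log2 units, lowest on EV 1 and highest on EV 2, and both of these are control arrays. Its difference of -0.016 ± 0.44 (SE) was not called (adjusted p = 0.998). In RefSeq the gene listed before GAS5 is GAS5-AS1.

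SNHG1, likewise a host of several snoRNAs, was measured on the minus strand of chromosome 11 (hg19, chr11:62619573-62619632). It read 3.80, 4.07, 3.95 and 3.86 in EV 1 to EV 4 and 3.47, 3.75 and 3.94 in HOTAIR 1 to HOTAIR 3. HOTAIR 1 and HOTAIR 2 lay below every control array and HOTAIR 3 among them. The difference was -0.20 ± 0.14 (SE; 95% interval -0.53 to 0.13, adjusted p = 0.972), and it was -0.077 without HOTAIR 1 and -0.31 without HOTAIR 3.

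Of 16 further noncoding snoRNA hosts, 12 were tested, and 0 were called by limma or reached an unadjusted p of 0.05 (0.167% and 5.85% of all tested probes). Their differences were small and 10 of 12 were negative (47.2% of all tested probes were), with a median of -0.087. SNHG15, which the array names C7orf40, was the only one whose groups did not overlap (7.70% of all tested probes had such groups). It averaged 2.96 ± 0.16 (SD, n = 3) in ACHN-HOTAIR and 3.20 ± 0.084 (SD, n = 4) in ACHN-EV cells, and the difference of -0.24 ± 0.12 (SE) did not pass (adjusted p = 0.914). SNHG12 had the most negative difference, -0.29 ± 0.20 (SE; adjusted p = 0.966), and SNHG6 and SNHG3 the only positive ones, 0.026 ± 0.11 and 0.023 ± 0.18.

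**Figure D3:**
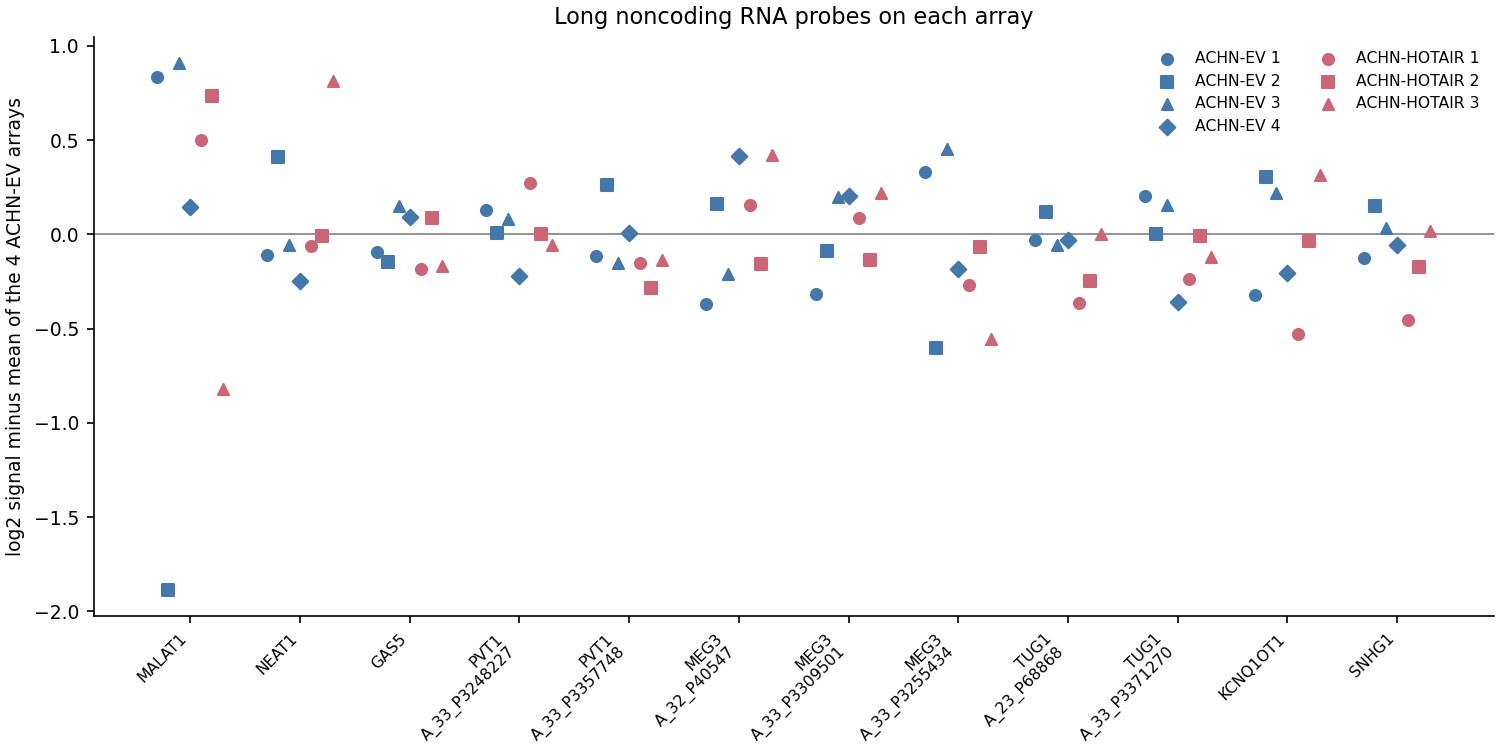
log2 signal of the 12 tested probes on each array, minus the mean of the 4 ACHN-EV arrays for that probe, with one symbol per array (blue, ACHN-EV; red, ACHN-HOTAIR). The groups overlap for every probe, and the lowest symbols are those of MALAT1 on EV 2 and HOTAIR 3.

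TUG1, which has been tied to Polycomb-bound chromatin and to kidney podocytes, had the lowest adjusted p among the members. Its first probe (hg19, chr22:31371927-31371986, plus strand) read 2.14, 2.29, 2.11 and 2.14 in EV 1 to EV 4 and 1.81, 1.92 and 2.17 in HOTAIR 1 to HOTAIR 3. HOTAIR 1 and HOTAIR 2 were below all control arrays and HOTAIR 3 lay within them. The difference was -0.20 ± 0.12 (SE; 95% interval -0.49 to 0.082, adjusted p = 0.943), and the exact permutation test over the 35 splits of the arrays gave p = 0.171 (two-sided; the smallest possible is 0.0286).

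The second TUG1 probe starts 3314 bases downstream of the first and shares 24 bases with a lincRNA probe of the same strand, in capitals here:
TUG1 A_33_P3371270: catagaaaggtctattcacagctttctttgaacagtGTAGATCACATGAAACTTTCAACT
Same strand A_19_P00328886: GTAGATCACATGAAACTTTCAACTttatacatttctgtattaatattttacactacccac
A_33_P3371270 read -1.22, -1.42, -1.27 and -1.78 in EV 1 to EV 4 and -1.66, -1.43 and -1.54 in HOTAIR 1 to HOTAIR 3. The 3 HOTAIR arrays lay inside the range of the controls (difference -0.12 ± 0.16 SE, adjusted p = 0.993). A_19_P00328886 read -2.67, -2.71, -2.77 and -3.27 in EV 1 to EV 4 and -3.26, -2.87 and -3.17 in HOTAIR 1 to HOTAIR 3. EV 4 was the lowest array for both probes, which read neighbouring bases of one RNA.

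The TUG1 locus has 10 same-strand lincRNA probes that were bright enough to test, A_19_P00328886 included, and together with the 2 named probes they cover 3410 bases. All 12 had a negative difference, from -0.53 to -0.065 with a median of -0.20, where 47.2% of all tested probes were negative. The probe A_19_P00315693 (-5.51 on HOTAIR 2) lay below the lowest signal among probes well above background there (-5.17). It was thus tested only through the EV arrays, and its negative difference of -0.35 was in part fixed by that filter. The 12 probes read the same arrays and overlap at 2 places, so the 12 differences are not independent. Limma called 0 of them (lowest adjusted p = 0.654, with 0.167% of all tested probes called), and 2 reached an unadjusted p of 0.05 (5.85% of all tested probes did). These 2, A_19_P00320625 and A_19_P00812582, share bases and so are not separate positions. Counted under each alternative that gives a log2 difference, a check added after the data were seen, 11 or 12 were negative (11 of 11 where probes had to be well above background on all arrays).

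Groups did not overlap at 2 of these 12 probes (of all tested probes, 7.70% had such groups and 3.5% had them with ACHN-HOTAIR lower). A_19_P00320625 read -2.85, -2.72, -2.87 and -2.96 in EV 1 to EV 4 and -3.11, -3.28 and -3.15 in HOTAIR 1 to HOTAIR 3, a difference of -0.33 ± 0.11 (SE; adjusted p = 0.655). A_19_P00320119 read -0.43, -0.42, -0.35 and -0.27 in EV 1 to EV 4 and -0.59, -0.64 and -0.57 in HOTAIR 1 to HOTAIR 3. At both probes the HOTAIR arrays lay close together just below the lowest control array. A_19_P00812582 had the largest difference, -0.53 ± 0.17 (SE; adjusted p = 0.654), with HOTAIR 3 (-4.02) just above EV 4 (-4.03).

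**Figure D4:**
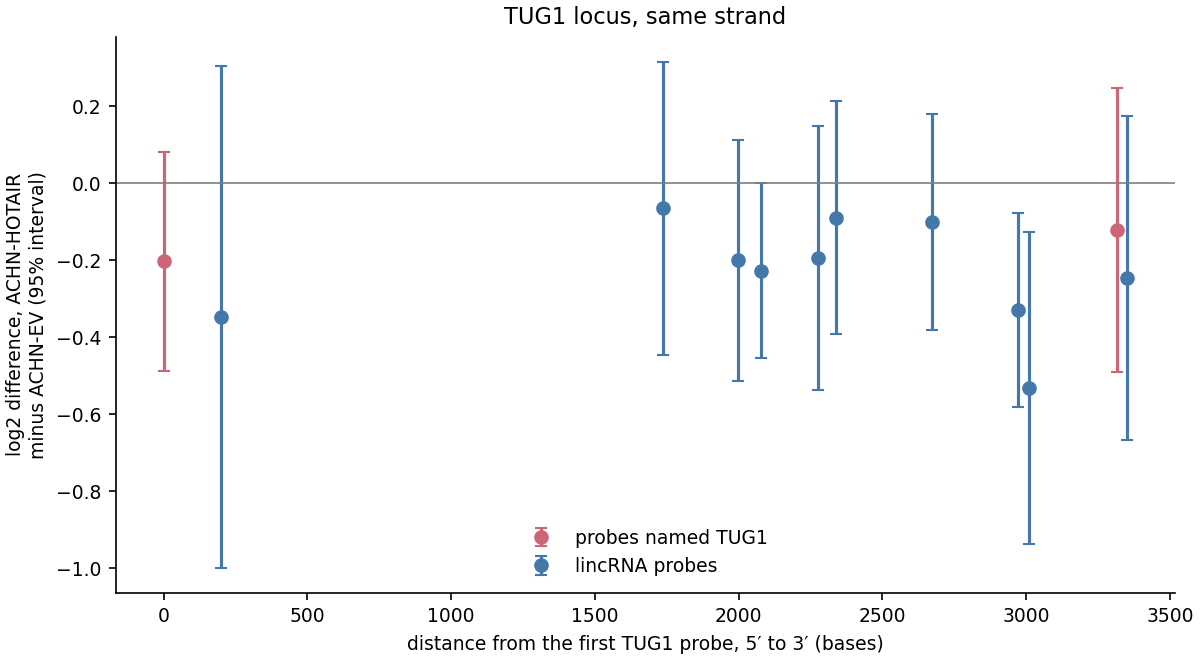
Difference in log2 signal between ACHN-HOTAIR and ACHN-EV cells for the 12 tested same-strand probes of the TUG1 locus against their distance in bases from the first, with points for the difference and bars for limma's 95% interval (red, probes named TUG1; blue, lincRNA probes). All 12 points lie below 0, from -0.53 to -0.065, and most intervals include 0.

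PVT1, the long RNA beside MYC, has 2 probes on the plus strand that start 306502 bases apart. The upstream one (hg19, chr8:128806902-128806961) read 2.61, 2.49, 2.57 and 2.26 in EV 1 to EV 4 and 2.76, 2.48 and 2.43 in HOTAIR 1 to HOTAIR 3. The downstream one (hg19, chr8:129113404-129113463) read 4.97, 5.35, 4.93 and 5.09 in EV 1 to EV 4 and 4.93, 4.80 and 4.95 in HOTAIR 1 to HOTAIR 3. Groups overlapped at both, and their differences had opposite signs, 0.072 ± 0.14 and -0.19 ± 0.13 (SE; adjusted p = 0.993 and 0.971).

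EV 2 was the highest array of the downstream PVT1 probe, and also of all 4 same-strand lincRNA probes near it that were well above background throughout. On the opposite strand, 11 of 15 probes were well above background throughout, but 10 of them crowd within one stretch (chr8:129108764-129108900) and amount to one target read 10 times. All 10 were lowest on EV 1, the array that was also lowest for the antisense probes of MALAT1, and their differences ran from 0.10 to 0.50. The median deviation of the 11 probes was -1.13 on EV 1, 0.67 on EV 4 and 0.72 on HOTAIR 3. Same-strand and opposite-strand probes near the downstream PVT1 probe thus ordered the arrays differently, though they do not all lie in that stretch. Of the 16 tested lincRNA probes near PVT1, 0 were called (0.167% of all tested probes were).

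Such probes were present at 8 loci. Of 94 lincRNA probes within 10 kb of a member probe, 44 were tested. Limma called 0 of them (0.167% of all tested probes were called). An unadjusted p of 0.05 was reached by 2 (5.85% of all tested probes did), both at TUG1 and sharing bases. The median range over the 7 arrays was 0.66 for the 21 tested same-strand probes and 1.83 for the 23 on the opposite strand. Since many of the opposite-strand probes share a target, this is a description without a test.

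The imprinted RNAs differed in whether they could be measured at all. H19, the maternally expressed RNA that hosts miR-675, was measured by a minus-strand probe printed 2 times (hg19, chr11:2016674-2016733), and it was well above background on none of the 7 arrays. It read between -7.53 and -7.23, with the groups mixed, and has no test:
H19 A_24_P52697: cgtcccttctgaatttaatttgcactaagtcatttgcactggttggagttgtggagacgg
Its neighbour IGF2, the growth factor gene of the same cluster, was also above background on no array.

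KCNQ1OT1, the paternally expressed RNA antisense to KCNQ1, was measured at hg19 chr11:2661803-2661862, minus strand. It read -3.68, -3.06, -3.14 and -3.57 in EV 1 to EV 4 and -3.89, -3.40 and -3.05 in HOTAIR 1 to HOTAIR 3. HOTAIR 1 was the lowest array and HOTAIR 3 the highest, so both extremes lay in one group. The difference was -0.084 ± 0.24 (SE; 95% interval -0.64 to 0.48, adjusted p = 0.993). Its 2 spots of one array differed by 0.017 to 0.39 (median 0.13).

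MEG3, the maternally expressed RNA of the DLK1-DIO3 cluster and a reported growth suppressor, has 3 plus-strand probes. The last ends in a stretch with the letters AATAAA (capitals):
MEG3 A_32_P40547: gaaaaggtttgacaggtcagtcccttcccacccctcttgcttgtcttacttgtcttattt
MEG3 A_33_P3309501: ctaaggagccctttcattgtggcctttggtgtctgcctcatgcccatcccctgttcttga
MEG3 A_33_P3255434: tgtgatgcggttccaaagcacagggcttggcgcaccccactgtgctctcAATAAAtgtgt
The first (hg19, chr14:101295974-101296033) read -1.07, -0.54, -0.91 and -0.29 in EV 1 to EV 4 and -0.55, -0.86 and -0.28 in HOTAIR 1 to HOTAIR 3, a difference of 0.14 ± 0.22 (SE). The second, 29098 bases downstream (chr14:101325072-101325131), read -3.38, -3.15, -2.86 and -2.86 in EV 1 to EV 4 and -2.97, -3.20 and -2.84 in HOTAIR 1 to HOTAIR 3, a difference of 0.057 ± 0.17. Both groups covered nearly the same range at each.

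The last MEG3 probe (chr14:101327286-101327345) read -1.19, -2.13, -1.07 and -1.71 in EV 1 to EV 4 and -1.80, -1.59 and -2.08 in HOTAIR 1 to HOTAIR 3. EV 2 and HOTAIR 3 were the lowest arrays, as they were for the MALAT1 probe. With -0.30 ± 0.27 (SE) it had the largest difference of any member in size, and the 95% interval ran from -0.92 to 0.33 (adjusted p = 0.993). Without EV 3 the difference was -0.15, without HOTAIR 3 -0.17, without EV 1 -0.19 and without EV 2 -0.50. The 3 MEG3 probes ordered the arrays differently: EV 2 was among the 3 highest at A_32_P40547 and lowest at A_33_P3255434. Over the 7 arrays the probes most like the last one were those of TNFRSF14 (r = 0.989), TM2D1 (r = 0.989) and HMGN1 (r = 0.985), chosen as the highest of all tested genes on 7 points that share the same arrays.

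Close to the first MEG3 probe, the same-strand lincRNA probe A_19_P00319862 read -5.15, -5.32, -4.70 and -5.68 in EV 1 to EV 4 and -2.76, -4.08 and -5.17 in HOTAIR 1 to HOTAIR 3. HOTAIR 1 was far above the rest. The probe was well above background on 2 EV and 3 HOTAIR arrays, so it was tested only because of the group in which it was high, and its positive difference of 1.21 ± 0.52 (SE; adjusted p = 0.859, not called) was in part fixed by that filter.

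Of 13 protein-coding genes of these imprinted clusters, 7 were tested and 6 were above background on no array, namely IGF2, INS, ASCL2, KCNQ1, RTL1 and DIO3. Limma called 0 of the 7 (0.167% of all tested probes were called), and 1 reached an unadjusted p of 0.05 (5.85% of all tested probes did). That was SLC22A18, a transporter-like gene of the KCNQ1OT1 domain. It averaged 0.71 ± 0.074 (SD, n = 3) in ACHN-HOTAIR and 0.34 ± 0.089 (SD, n = 4) in ACHN-EV cells (difference 0.37 ± 0.10 SE, adjusted p = 0.478). Its groups did not overlap, as at 7.70% of all tested probes. NAP1L4 (0.29 ± 0.33), PHLDA2 (0.24 ± 0.12) and TSSC4 (0.22 ± 0.11) of the same domain had positive differences, CD81 and CDKN1C, a cell-cycle inhibitor, had -0.055 ± 0.13 and -0.0029 ± 0.26, and DLK1, in the cluster of MEG3, had 0.034 ± 0.35 (SE; adjusted p from 0.906 to 0.999). The median over the 7 was 0.22 with the brightest probe of each gene and 0.055 with the mean over its probes.

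MIAT, a nuclear RNA known from retina and heart, was at background on all 7 arrays by the scanner software's test. Its probe (hg19, chr22:27072342-27072401, plus strand) read between -7.71 and -7.10 and has no test:
MIAT A_24_P854492: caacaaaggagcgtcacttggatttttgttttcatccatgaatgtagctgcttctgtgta
Of 9 same-strand lincRNA probes within 10 kb of it, 8 were above background on no array.

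Among 22 other widely studied noncoding RNAs, 10 had no probe under the name searched and 3 (HULC, CDKN2B-AS1 and EMX2OS) were not bright enough. The other 9 were tested, with 0 called by limma and 0 at an unadjusted p of 0.05 (0.167% and 5.85% of all tested probes). The differences of 7 were positive and 2 negative (47.2% of all tested probes were negative). The median was 0.40, against 0.013 over all tested probes. RPPH1, the RNA of ribonuclease P, had 0.60 ± 0.50 (SE), TERC, the telomerase RNA, had 0.45 ± 0.22, and RMRP, the RNA of ribonuclease MRP, had 0.40 ± 0.35 (adjusted p from 0.924 to 0.993). PCA3 (0.43 ± 0.32) and CRNDE (0.42 ± 0.31) had differences of similar size. PCA3 averaged -5.05 ± 0.40 (SD, n = 4) in ACHN-EV cells. The lowest signal among probes well above background was -5.43 to -5.04 over the arrays, so the sign of PCA3 may be in part fixed by the filter. UCA1, a cancer-associated RNA, had -0.029 ± 0.20, and DLEU1 had -0.0053 ± 0.096.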

How the data were processed

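Per the labels, RNA was labelled with Cy3 using the Low Input Quick Amp kit, which primes on poly(A) and so favours sequence near the 3′ end. The authors extracted the images with Agilent Feature Extraction 10.7.3.1 and deposited for each spot a processed intensity, with background subtracted, and background and outlier calls. Probe positions are those of the array annotation (hg19). Current names and neighbours came from RefSeq (GRCh38.p14). The position and bases of the NEAT1 probe are not reported here.

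The log2 intensity minus each array's 75th percentile over non-control spots was used. Between 408 and 600 outlier spots per array were left out, spots of a probe were averaged, and a probe counted as well above background on an array if a share of at least 0.5 of its spots was. A probe was tested if this held for all arrays of one group. No spot was saturated, and the number of arrays limits the precision. ACHN-HOTAIR was compared with ACHN-EV with limma 3.58.1 (R 4.3.3; lmFit and eBayes) and Benjamini-Hochberg adjustment over 20419 probes, at 0.05. The exact permutation test ran over the 35 splits of the arrays. The HOTAIR bound sets the dim probe on each control array to the lowest signal among probes well above background there. The fit was tested on simulated data.

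Named are all member probes, the HOTAIR probe, lincRNA probes within 10 kb of a member probe, called list genes with the 2 most positive and 2 most negative of each list (brightest probe of a gene), and the 3 genes most like the member probe that changed most. Other names (PHLDA2, TSSC4, DLK1, RMRP, PCA3, CRNDE, the imprinted genes at background, the other-cell genes not tested, PAX8, PAX2 and KRT18) were picked after seeing values. The members and lists were chosen with earlier results of these data known.

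The alternatives tried were quantile normalization, normexp background correction (offset 50), other percentiles and filters, the deposited table, trend and robust moderation, array weights, a replicate block, each array left out, EV 2 and HOTAIR 3 left out together, the rank product (12 comparisons, 100 permutations) and the Mann-Whitney test.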

Additional observations from a re-analysis of the deposited data

Results flagged for a closer look

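Among 60 tests of whether one of the 4 ACHN-EV arrays stands far from the others, over member probes, nearby lincRNA probes, the HOTAIR probe and the first principal component, 3 exceeded Dixon's 95% critical value, and 3 would be expected by chance. For the TUG1 probe A_23_P68868, EV 2 read 2.29 and the next array 2.14, a gap of 0.836 of the range of the group. For the TUG1 lincRNA probe A_19_P00328886, EV 4 read -3.27 and the next array -2.77 (0.843 of the range). On the first principal component over all tested probes EV 2 scored 74.0 and the next control array -8.50 (0.896 of the range).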

How the results depend on the processing

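No member probe was called under any alternative (lowest adjusted p 0.196, with array weights), and of 215 pairs of a member probe and an alternative 197 kept the sign and 18 reversed it, none of them called. MALAT1 changed to -0.052 with normexp, -0.18 with array weights and -0.013 without EV 2 and HOTAIR 3, and leaving out one array gave -0.49 to 0.62. MEG3 A_33_P3309501 changed to -0.011 with normexp, -0.040 with quantile normalization, -0.13 with array weights and -0.054 without EV 2 and HOTAIR 3 (one array left out: -0.049 to 0.15). PVT1 A_33_P3248227 was -0.0019 with the replicate block (one array left out: -0.029 to 0.14). Leaving out one array gave -0.034 to 0.40 for NEAT1, -0.28 to 0.14 for KCNQ1OT1, -0.50 to -0.15 for MEG3 A_33_P3255434, 0.00013 to 0.29 for MEG3 A_32_P40547, -0.31 to -0.077 for SNHG1, -0.17 to -0.037 for GAS5, -0.24 to -0.10 for PVT1 A_33_P3357748, -0.31 to -0.12 for TUG1 A_23_P68868 and -0.24 to -0.053 for TUG1 A_33_P3371270. The cause of these changes was not tested.

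The number of probes called on the whole array was 34 and moved to 12 with normexp, 14 without the filter on dim probes, 22 with probes well above background on all arrays, 20 with trend and robust moderation, 324 with array weights, 85 with the rank product (52 higher and 33 lower), and 0 with the Mann-Whitney test, whose smallest possible p is 0.0571. Leaving out one array gave 9 (EV 1), 11 (EV 4), 12 (EV 3), 13 (HOTAIR 2), 15 (HOTAIR 1), 21 (HOTAIR 3) or 30 (EV 2). Deviations of same-numbered arrays from their group means had correlations of 0.386, -0.368 and -0.406, while EV 2 with HOTAIR 3 had 0.619. Since EV 2 stood apart and shifts its group's mean, these values cannot decide whether the numbers pair the samples. With the replicate block limma called 0 probes (1073 at an unadjusted p of 0.05, 0 of them members), and the HOTAIR probe gave 3.59 (adjusted p = 0.0772). Its log2 difference stays 3.71 under the Mann-Whitney test, which gives no difference of its own (adjusted p = 0.742). Leaving out one array gave 3.51 to 3.84 for it, and normexp gave 1.06 (adjusted p = 0.0251), the largest move of this value.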
